A study of Homo sapiens with 8 samples.

Results

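The 39 genes described here encode the enzymes that join amino acids to their transfer RNAs, the aminoacyl-tRNA synthetases, together with the scaffold proteins that hold some of these enzymes in a complex. They were taken from a fixed list of gene symbols, matched by Ensembl identifier to the GENCODE annotation of GRCh38, and kept if they had 10 or more counts in 2 or more of 8 libraries. All 39 matched and all 39 passed, among 13943 genes that passed of 38032 listed. They comprise 20 cytosolic synthetases, 16 mitochondrial synthetases and 3 scaffold proteins. HepG2, a human line derived from a liver carcinoma, was grown for 8 days either on flat culture plastic (2D-primed) or on Alvetex Strata, a porous polystyrene scaffold (3D-primed), and polyadenylated RNA was sequenced in 4 replicate libraries of each kind. The labels name no transgene or drug, and both groups came from cells propagated on plastic, were freed with trypsin and received the same medium with serum, glutamine and added non-essential amino acids. The groups also differed in the number of cells seeded, which was higher for the scaffold, so that seeding and topography cannot be told apart. The labels number the replicates without saying whether they came from separate cultures or occasions, and the p-values therefore measure the spread between these libraries.

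Each synthetase couples its own amino acid to ATP and then transfers it to the matching tRNA, and the charged tRNA is what the ribosome reads. Human cells keep separate sets for the cytosol and for the mitochondrion, and the mitochondrial set, mostly written with the suffix 2, serves the few proteins that mitochondrial DNA encodes. In the cytosol some synthetases assemble with the scaffold proteins AIMP1, AIMP2 and EEF1E1 (AIMP3) into the multi-synthetase complex. The others are called free here, meaning only that they are outside that complex. When an amino acid runs short, uncharged tRNA activates the kinase GCN2, and the transcription factor ATF4 is then made and switches on genes for amino acid synthesis, uptake and tRNA charging.

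ATF4 acts with C/EBP partners on a short element whose core was searched here as TGATGNAA, on both strands, in the 300-base windows around RefSeq starts, 250 bases before to 50 after, on GRCh38.p14. Of the members, 33 had an entry, and 8 of these held the core, 7 of 16 cytosolic enzymes, 1 of 14 mitochondrial enzymes and 0 of 3 scaffold proteins. VARS1, VARS2, TARS3, YARS1, AARS2 and LARS1 had no entry. The core was present in 3.62% of all 35116 windows, and in at least 1 window of 4.46% of the 27305 genes. The 8 matches are printed 5′ to 3′ on the strand of the gene because a member's match is referred to beside its values below, with the asparagine synthetase gene ASNS, a textbook ATF4 target, for comparison. Capitals mark the 8 matched bases.
AARS1, chr16:70289675-70289704, minus strand: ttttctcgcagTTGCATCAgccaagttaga
CARS1, chr11:3057407-3057436, minus strand: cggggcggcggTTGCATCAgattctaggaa
IARS1, chr9:92293692-92293721, minus strand: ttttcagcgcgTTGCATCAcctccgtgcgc
MARS1, chr12:57488053-57488082, plus strand: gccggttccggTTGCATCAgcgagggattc
TARS1, chr5:33440956-33440985, plus strand: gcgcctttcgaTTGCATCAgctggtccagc
NARS1, chr18:57621804-57621833, minus strand: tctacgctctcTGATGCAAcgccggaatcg
GARS1, chr7:30594834-30594863, plus strand: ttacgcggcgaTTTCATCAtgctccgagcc
YARS2, chr12:32756076-32756105, minus strand: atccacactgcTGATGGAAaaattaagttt
ASNS, chr7:97872458-97872487, minus strand: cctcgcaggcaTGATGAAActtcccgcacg
AARS1, CARS1, IARS1, MARS1 and TARS1 carried the same 8 letters, TTGCATCA, and NARS1 carried their reverse complement, although the search itself fixed all but 1 of the 8 letters. GARS1 carried the reverse complement of the letters in ASNS. Counted from the start as 1 with no 0, the last matched base lay at -6 in IARS1, and the match spanned the start in CARS1 and MARS1 and lay inside the transcript in TARS1 and NARS1. A match is a description of the letters and not a binding site.

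The libraries held 21599630 to 25019499 counts in the 2D-primed group and 22153063 to 27844077 in the 3D-primed group. Reads of the 13 protein-coding genes of mitochondrial DNA made up 1.40% to 1.81% of the 2D-primed and 2.47% to 2.98% of the 3D-primed counts. All 7 hepatocyte markers were detected, of which 5 were higher and 2 lower in 3D-primed cells, and albumin stood at 26390 CPM (counts scaled to a common library size) in 2D-primed cells and 44040 CPM in 3D-primed cells. Of 6 markers of other cells, the leukocyte marker PTPRC and the bile duct keratin KRT7 had 0 to 2 counts, COL1A1 had 0 to 28, PECAM1 had 18 to 45, and ACTA2 had 672 to 845. Their summed level was 282 to 340 CPM in the 2D-primed and 112 to 130 CPM in the 3D-primed libraries, most of it KRT19, which fell from 282 to 88.5 CPM, and its part in the results below was not tested.

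Synthetase transcripts were more abundant in 3D-primed cells. Together the 39 genes took 0.251% to 0.259% of all counts in the 2D-primed libraries and 0.346% to 0.357% in the 3D-primed libraries, so the groups did not overlap. By edgeR's quasi-likelihood test with Benjamini-Hochberg adjustment over all genes tested, 27 of the 39 were higher in 3D-primed cells, 3 were lower and 9 were not called at an adjusted p of 0.05. Over all 13943 genes, 32.4% were called higher in 3D-primed cells, 31.6% were called lower and 63.9% were called in either direction. In 26 of the 39 all 4 3D-primed values lay above all 4 2D-primed values, against 30.2% of all genes, and in 3 they lay below, against 29.5%. The median log2 fold change of the members was 0.31, that is 1.24-fold, where the median of all genes was 0.01. In bulk RNA a change in the number of cells that express a gene and a change in RNA per cell cannot be told apart.

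**Figure D1:**
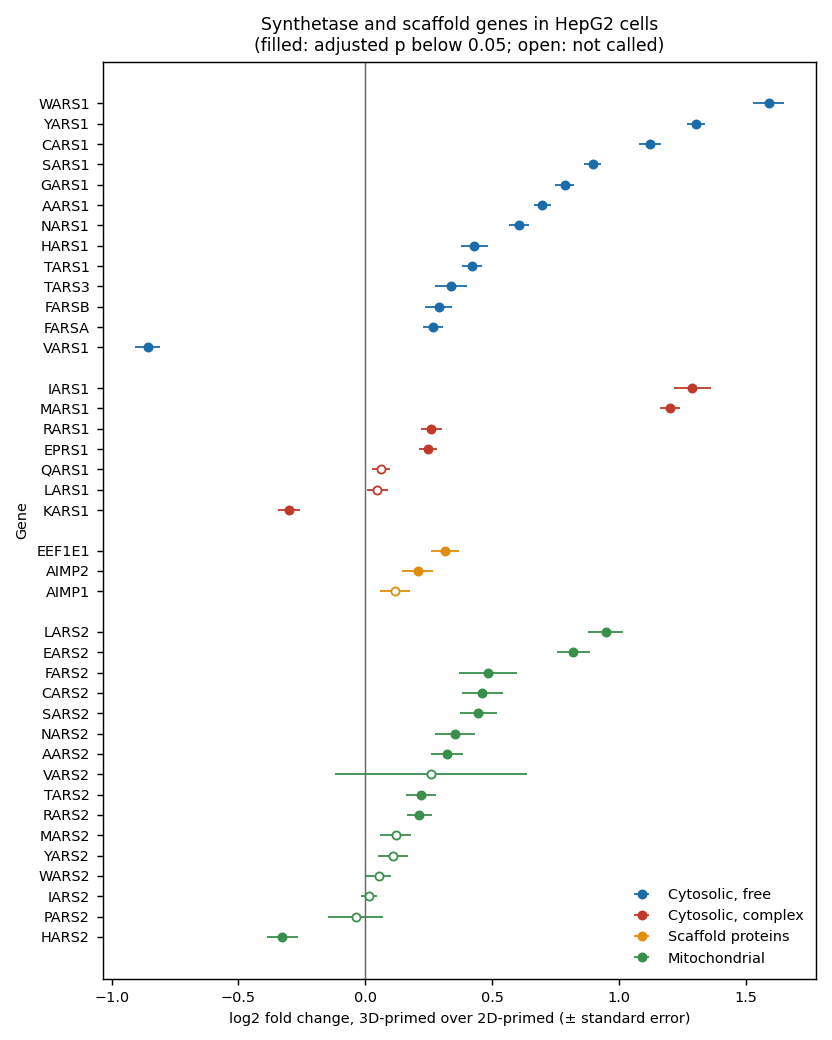
The log2 fold change of each of the 39 genes, 3D-primed over 2D-primed, is shown on the horizontal axis with its standard error, sorted within free cytosolic, complex-bound cytosolic, scaffold and mitochondrial genes. Filled points passed an adjusted p of 0.05 (edgeR). WARS1 stands at the right end at 1.59 and VARS1 at the left end at -0.86, and the wide bar is VARS2.

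The free cytosolic enzymes moved most widely. Of 13, 12 were higher in 3D-primed cells and 1 was lower, with a median of 0.61 on the log2 scale (1.52-fold). Among all genes 32.4% were called higher and 31.6% lower. In none of the 13 did the groups overlap, while 30.2% of all genes lay apart with 3D-primed higher and 29.5% with 2D-primed higher. WARS1, the tryptophan enzyme (ENSG00000140105, chr14:100333790-100376805, minus strand), stood at 30.3, 26.9, 24.8 and 25.1 CPM in the 2D-primed libraries and at 78.4, 82.0, 82.1 and 79.5 CPM in the 3D-primed libraries. It was thus low in every 2D-primed and high in every 3D-primed library, a 3.01-fold difference (log2 1.59 ± 0.06 SE, adjusted p = 2.8e-08, edgeR), and it had the largest change of all members.
YARS1, the tyrosine enzyme, gave 62.9, 63.9, 61.5 and 60.0 CPM and then 155, 155, 153 and 150 CPM. The spread within each group was a few CPM and the difference was 2.47-fold (log2 1.30 ± 0.04 SE, adjusted p = 7.0e-09, edgeR). CARS1, which charges cysteine tRNA, gave 18, 19.2, 19.2 and 19.8 CPM and then 41.6, 41.3, 40.3 and 42.5 CPM, with the groups well apart (log2 1.12 ± 0.04 SE, adjusted p = 3.1e-08, edgeR). These 3 were the free enzymes that passed 2-fold.

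The next 4 free enzymes rose by less than 2-fold, and their groups were apart. SARS1 charges serine tRNA, and also the selenocysteine tRNA, with serine. It was measured at 82.1, 85.9, 85.6 and 86.8 CPM in 2D-primed and 158, 161, 160 and 155 CPM in 3D-primed cells (log2 0.90). GARS1, the glycine enzyme, which also supplies the mitochondrial form from the same gene, gave 111, 118, 119 and 113 CPM and then 195, 201, 202 and 198 CPM (log2 0.79). AARS1, the alanine enzyme, gave 172, 176, 180 and 176 CPM and then 281, 289, 292 and 280 CPM (log2 0.70). NARS1, the asparagine enzyme, went from 110 ± 3.78 to 168 ± 4.40 CPM (SD, n = 4; log2 0.61). All 4 had an adjusted p between 3.4e-08 and 5.1e-07 (edgeR).
The remaining risers changed by 1.20-fold to 1.35-fold. They were HARS1 for histidine (log2 0.43, adjusted p = 4.4e-05, edgeR), TARS1 for threonine (0.42), its paralogue TARS3 (0.34), and both chains of the phenylalanine enzyme, FARSB at 0.29 and FARSA at 0.27. The chains FARSA and FARSB form the same enzyme, and their changes differed by less than their standard errors of 0.04 and 0.05. TARS1 and TARS3 share sequence, so reads could be split between them, and TARS3 had 209 to 391 counts.

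VARS1, the valine enzyme (ENSG00000204394, chr6:31777518-31795752, minus strand), was the exception among free enzymes. It stood at 114.5, 119, 104 and 114 CPM in the 2D-primed libraries and at 61.3, 66.1, 60.1 and 61.4 CPM in the 3D-primed libraries. Every 3D-primed value lay below every 2D-primed value, and the 2D-primed mean was 1.81 times the 3D-primed mean (log2 -0.86 ± 0.05 SE, adjusted p = 2.9e-07, edgeR). VARS1 lies in the major histocompatibility region of chromosome 6, for which Ensembl also lists alternative copies under identifiers of their own. The 3055 identifiers without a symbol held 2.48% of counts, and whether VARS1 reads are among them was not tested.

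**Figure D2:**
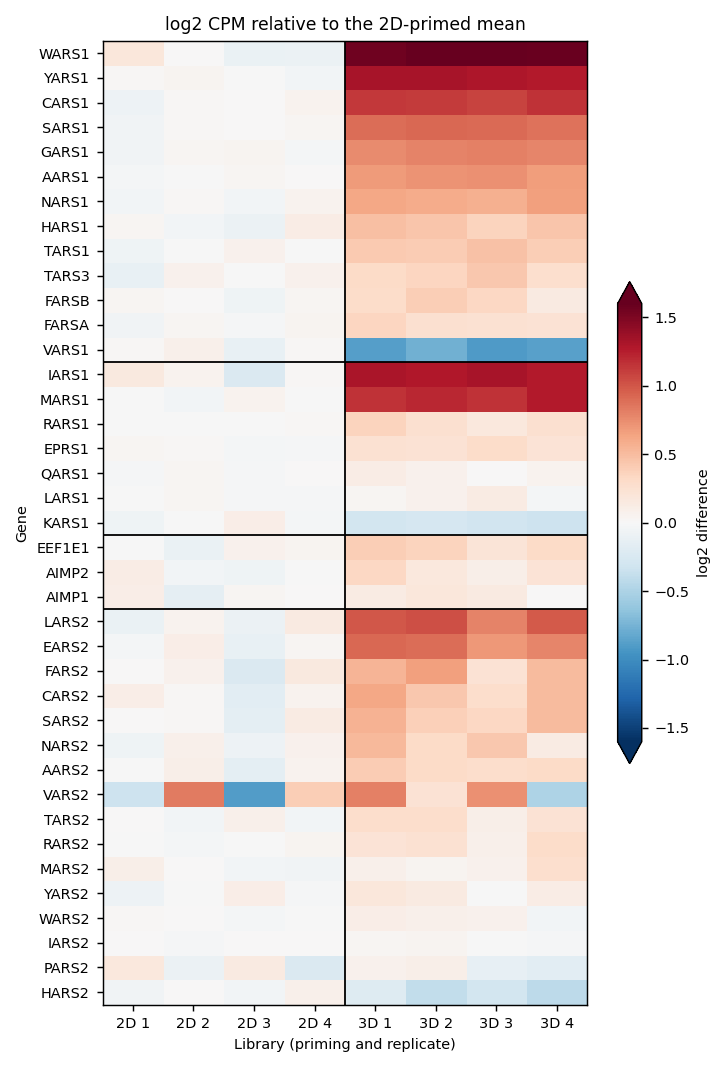
Each row is a gene and each column a library (2D-primed replicates 1 to 4, then 3D-primed replicates 1 to 4). Colour gives log2 CPM minus the mean log2 CPM of the 2D-primed libraries, red above and blue below, with black lines between free, complex-bound, scaffold and mitochondrial genes. The top rows, from WARS1 at 78.4 to 82.1 CPM in 3D-primed cells, are red in all 4 3D-primed columns, VARS1 and KARS1 are blue there, and VARS2 changes colour within both groups.

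Members of the multi-synthetase complex changed unevenly. Of the 10, 6 were higher in 3D-primed cells, 1 was lower and 3 were not called, with a median log2 fold change of 0.23 (1.17-fold). The 7 called of 10 are near the 63.9% of all genes called in either direction, where 32.4% were higher and 31.6% lower. IARS1, the isoleucine enzyme (ENSG00000196305, chr9:92210207-92293854, minus strand), gave 138, 129, 105 and 125 CPM in 2D-primed and 306, 301, 309 and 299 CPM in 3D-primed libraries. The 2D-primed values were the more scattered, at 124 ± 14.0 CPM (SD, n = 4), and still lay far below the 3D-primed values (log2 1.29 ± 0.07 SE, adjusted p = 2.2e-07, edgeR). MARS1, the methionine enzyme, gave 65.2, 63.5, 68.0 and 65.5 CPM and then 147, 152, 146 and 158 CPM (log2 1.20 ± 0.04 SE, adjusted p = 1.9e-08, edgeR). Those were the complex members that passed 2-fold.
RARS1 for arginine changed by 0.26 and EPRS1, a fused enzyme for glutamate and proline, by 0.25 on the log2 scale, each with its groups apart. QARS1 for glutamine stood at 255, 264, 256 and 261 CPM in 2D-primed and 280, 271, 261 and 270 CPM in 3D-primed cells. Its groups overlapped and it was not called (log2 0.06 ± 0.04 SE, adjusted p = 0.15, edgeR), although upper-quartile scaling gave 0.11 and a call. LARS1 for leucine was not called either, at 99.5 ± 1.57 and 103 ± 4.87 CPM (SD, n = 4; log2 0.05 ± 0.04 SE).
KARS1, the lysine enzyme (ENSG00000065427), whose gene also gives the mitochondrial form, gave 228, 239, 258 and 234 CPM in 2D-primed and 195, 199, 194 and 191 CPM in 3D-primed libraries. All 3D-primed values were lower (log2 -0.30 ± 0.04 SE, adjusted p = 1.5e-04, edgeR).

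The scaffold genes changed by 0.12 to 0.31 on the log2 scale. EEF1E1 gave 31.2, 29.3, 32.8 and 32.4 CPM and then 41.3, 40.0, 36.0 and 39 CPM, with the groups apart (log2 0.31, adjusted p = 5.0e-04, edgeR). AIMP2 was called (log2 0.21, adjusted p = 0.013, edgeR) although its groups overlapped, with 30.9 CPM in a 2D-primed library and 30.5 CPM in a 3D-primed library. AIMP1 was not called, at 61.6 ± 4.40 and 66.8 ± 3.46 CPM (SD, n = 4; log2 0.12, adjusted p = 0.10, edgeR), but passed the threshold at 0.15 without 3D-primed replicate 4. Without the scaffold genes, 4 of 7 complex enzymes were higher and 1 was lower, beside 32.4% and 31.6% of all genes, and their median was 0.25. Beside the free enzymes, where 12 of 13 were higher with a median of 0.61, the complex enzymes ran from -0.30 to 1.29 and the free enzymes from -0.86 to 1.59.

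Mitochondrial synthetases changed less widely than the cytosolic set. Of 16, 9 were higher in 3D-primed cells, 1 was lower and 6 were not called, with a median of 0.24 (1.18-fold), and 0 passed 2-fold. The 10 called of 16 are near the 63.9% of all genes called in either direction, of which 32.4% were higher and 31.6% lower. Of the 20 cytosolic enzymes, 16 were higher, 2 were lower and 2 were not called, with a median of 0.42 (1.34-fold), and 5 passed 2-fold. Over all 13943 genes, 677 were called higher by 2-fold or more. Leaving out GARS1 and KARS1, whose genes serve both compartments and whose counts cannot be separated into forms, 15 of 18 cytosolic enzymes were higher and the median was 0.42 again. The share of counts on mitochondrial DNA genes moved in the same direction, as given above, and its part in these values was not tested.
LARS2, the mitochondrial leucine enzyme (ENSG00000011376, chr3:45388561-45554726, plus strand), had the largest change of the set. It stood at 24.2, 26.9, 24.3 and 28.7 CPM in 2D-primed and 51.5, 53.2, 45.2 and 51.1 CPM in 3D-primed libraries (log2 0.95 ± 0.07 SE, adjusted p = 1.2e-06, edgeR). EARS2, the glutamate enzyme of mitochondria, gave 33.2, 36.5, 31.1 and 34.6 CPM and then 64.0, 62.7, 54.5 and 57.9 CPM (log2 0.82 ± 0.06 SE, adjusted p = 2.0e-06, edgeR). In both, 3D-primed replicate 3 was the lowest of its group and still above every 2D-primed library.
FARS2 (0.48), CARS2 (0.46), SARS2 (0.45), NARS2 (0.36), AARS2 (0.32), TARS2 (0.22) and RARS2 (0.21), the mitochondrial enzymes for phenylalanine, cysteine, serine, asparagine, alanine, threonine and arginine, were the other risers on the log2 scale. Their adjusted p ran from 3.3e-04 to 0.0076 (edgeR).
IARS2, the isoleucine enzyme and the most abundant mitochondrial synthetase transcript per length, was almost level between groups, at 190 ± 1.20 and 192 ± 4.11 CPM (SD, n = 4). Its log2 fold change was 0.01 ± 0.03 SE and its groups overlapped. MARS2, YARS2, WARS2 and PARS2 were not called, with log2 values of 0.12, 0.11, 0.05 and -0.04. Without 3D-primed replicate 3, YARS2 passed the threshold at 0.14, and PARS2 changed sign under some of the alternatives.
VARS2, at 1.56, 3.50, 1.06 and 2.57 CPM and then 3.43, 2.30, 3.26 and 1.39 CPM, had 26 to 91 counts per library and scattered more than 3-fold within the 2D-primed group. It was not called (log2 0.26 ± 0.38 SE, adjusted p = 0.57, edgeR), and changes of the size seen in most members were not detectable with that error. VARS2 lies in the same region of chromosome 6 as VARS1 (chr6:30914205-30926459), and the same limit holds.

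The ratio of a cytosolic to a mitochondrial enzyme of the same amino acid within a library needs no scaling between libraries. It compares that pair of enzymes and shifts when either changes, so it is no test of the compartments as sets. There were 16 such pairs, of which EPRS1 stood in 2, for glutamate and for proline. In 10 pairs the ratio was higher in all 3D-primed libraries, in 2 it was lower in all, and in 4 the libraries overlapped. The median change was 0.33 on the log2 scale. Single genes had their groups apart in 30.2% of all genes with 3D-primed higher and in 29.5% with 2D-primed higher. The share among other pairs of genes was not tested. The 12 pairs without overlap had p = 0.029 (two-sided exact permutation test over libraries, not adjusted for the 16 pairs), the smallest that 70 divisions of 4 against 4 can give.
The tryptophan pair changed most. The counts of WARS1 were 1.53, 1.37, 1.30 and 1.29 times those of WARS2 in the 2D-primed libraries and 3.72, 3.99, 4.01 and 4.21 times in the 3D-primed libraries, a 2.91-fold rise of the ratio. The ratios are of counts, without regard to transcript length, so only their change is compared.
The isoleucine ratio rose 2.43-fold, tyrosine 2.29-fold and methionine 2.12-fold, and in each of these the mitochondrial partner itself was not called. Histidine followed at 1.69-fold, with HARS1 and HARS2 moving in opposite directions, and then cysteine at 1.58-fold, serine at 1.37-fold, alanine at 1.29-fold, asparagine at 1.20-fold and threonine at 1.15-fold.
Leucine and glutamate went the other way. The counts of LARS1 were 4.11, 3.78, 4.05 and 3.43 times those of LARS2 in 2D-primed and 1.97, 1.95, 2.41 and 1.90 times in 3D-primed libraries, a ratio 1.87 times as high in 2D-primed cells. For EPRS1 over EARS2 the 2D-primed ratio was 1.49 times the 3D-primed ratio.
The overlapping pairs were phenylalanine (log2 change -0.22, exact permutation p = 0.11), proline (0.28, exact permutation p = 0.11), arginine (0.05, exact permutation p = 0.34) and valine (-1.17, exact permutation p = 0.057). The valine value carries the scatter of VARS2. The alanine p rose to 0.057 without any of the 3D-primed libraries and the asparagine p to 0.086 without any of the 2D-primed libraries, while the phenylalanine p without 3D-primed replicate 3 and the proline p without 2D-primed replicate 4 fell to 0.029 (exact permutation tests). The alanine and asparagine ratios stayed apart between the groups whichever library was left out.

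**Figure D3:**
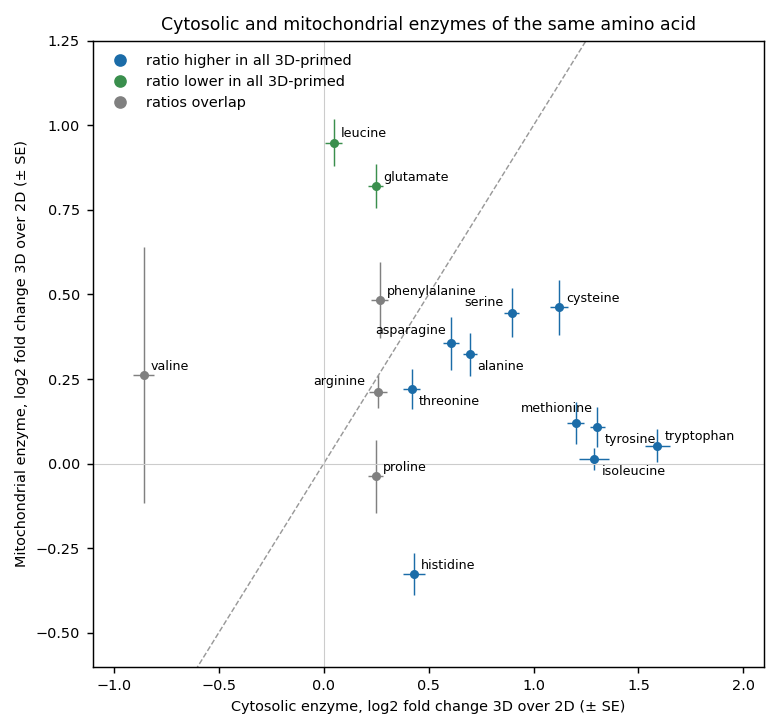
Each point is an amino acid, with the log2 fold change of its cytosolic enzyme (3D-primed over 2D-primed) on the horizontal axis and that of its mitochondrial enzyme on the vertical axis, both with standard errors. On the dashed line both change alike. The 10 blue points lie below the line, tryptophan farthest with 1.59 against 0.05, and leucine (0.05 against 0.95) and glutamate (0.25 against 0.82) lie above it.

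Levels between genes can be compared per length, as mean CPM per kilobase of the Ensembl canonical transcript. The median over the 20 cytosolic enzymes was 28.4 in the 2D-primed group and 45.9 in the 3D-primed group, and over the 16 mitochondrial enzymes it was 6.94 and 8.71. KARS1 and QARS1 led in both groups, in the order KARS1 (120) before QARS1 (106) in 2D-primed cells and QARS1 (110) before KARS1 (97.8) in 3D-primed cells. IARS2, at 53.9 and 54.4, was the highest mitochondrial gene, next to AARS1 at 51.2 in 2D-primed cells, and the sets overlapped, with RARS2 at 16.0 above WARS1 at 10.1 in 2D-primed cells. The scaffold genes lay at 22.2 to 30.0 and 24.1 to 37.3. TARS3 was the lowest cytosolic gene, at 2.99 and 3.79, and VARS2 the lowest of all, at 0.61 and 0.73. VARS1 fell from 27.4 to 15.1, the level that CARS1 reached from 6.95.

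**Figure D4:**
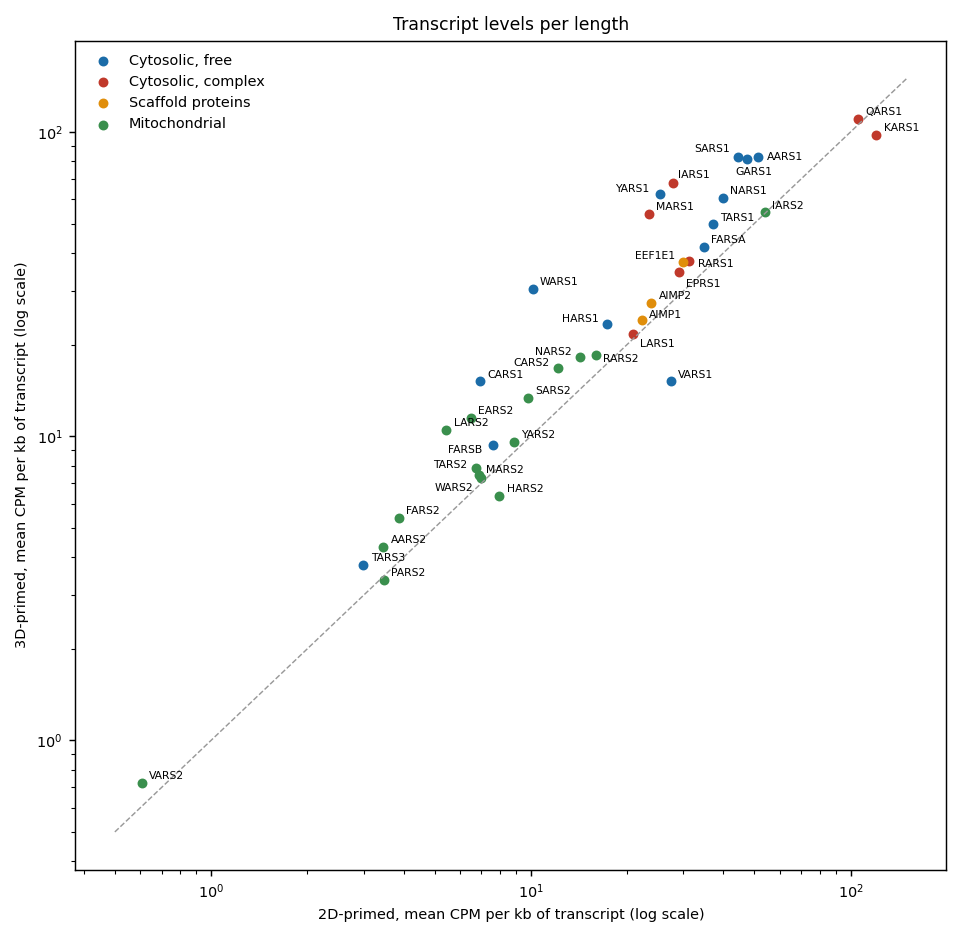
Mean CPM per kilobase of transcript in 2D-primed (horizontal) and 3D-primed cells (vertical), n = 4 each, both axes logarithmic, coloured by free, complex-bound, scaffold and mitochondrial genes. Points above the dashed line were higher in 3D-primed cells. Cytosolic enzymes (median 28.4 and 45.9) lie mostly to the upper right of the mitochondrial enzymes (6.94 and 8.71), with some overlap, and IARS2 lies near 54 on both axes.

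Synthetases also fall into structural classes, class I with a Rossmann-fold catalytic domain and class II with an antiparallel sheet, a grouping that was added after the values had been seen. EPRS1, which joins an enzyme of each class, was left out. Of 9 class I cytosolic enzymes, 6 were higher in 3D-primed cells and 5 of them by 2-fold or more (WARS1, YARS1, IARS1, MARS1 and CARS1), with a median of 1.12. Of 10 class II cytosolic genes, 9 were higher and 0 passed 2-fold, with a median of 0.42. Over all 13943 genes, 32.4% were called higher and 31.6% lower, and 677 genes were called higher by 2-fold or more. The class I set also held VARS1, QARS1 and LARS1, so its values were the more divided. In mitochondria the medians were 0.21 for 9 class I and 0.32 for 7 class II enzymes, so the order of the medians was the opposite there.

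Several synthetase genes start close to another gene. Within 1000 bases on the opposite strand, a protein-coding gene that passed the filter was found for 11 members, HARS1 and HARS2 being each other's neighbour. Of the 11 neighbours 6 were higher and 1 was lower in 3D-primed cells, beside 32.4% and 31.6% of all genes. The share called in either direction was near the 63.9% of all genes. In 4 cases, the HARS1 and HARS2 pair counted from both sides, member and neighbour differed in sign. HARS1 and HARS2 (chr5:140673035-140691537 and chr5:140691430-140699305) start 107 bases apart on opposite strands and overlap there. HARS1 rose from 34.4, 32.6, 31.5 and 36.5 CPM to 47.2, 46.0, 43.0 and 45.8 CPM, while HARS2 fell from 19, 19.8, 19.1 and 20.8 CPM to 17.0, 14.9, 16.1 and 14.7 CPM (log2 -0.33 ± 0.06 SE, adjusted p = 9.3e-04, edgeR). Neither gene's groups overlapped. The genes overlap and encode related enzymes. Reads were assigned by Salmon to cDNA from a strand-keeping library, and the library-type setting is not given in the sources used here.
FARS2 and its neighbour LYRM4, which is needed for iron-sulphur cluster assembly, start 94 bases apart and both changed by 0.48 on the log2 scale. EARS2 changed by 0.82 and UBFD1, 10 bases away, by 0.37 (adjusted p = 8.4e-06, edgeR). RARS2 changed by 0.21 and ORC3, of the replication origin complex, by 0.54. AIMP2 changed by 0.21 and the mismatch repair gene PMS2 by 0.39, and WARS1 by 1.59 and WDR25 by 0.58. The neighbours of AARS1 (DDX19B, -0.08), SARS2 (the mitochondrial ribosomal protein gene MRPS12, 0.06), CARS2 (ING1, -0.07) and KARS1 (TERF2IP, -0.09) were not called.

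All 7 cytosolic enzymes with the TGATGNAA core were called higher in 3D-primed cells, with log2 values from 0.42 for TARS1 to 1.29 for IARS1. The mitochondrial enzyme with a core, YARS2, was not called. Of all 20 cytosolic enzymes 16 were called higher, and the motif was chosen after values had been seen. WARS1 and SARS1 had windows without these letters and changed by 1.59 and 0.90. EPRS1, FARSA, FARSB, HARS1 and RARS1, also without the letters, were called higher too, while KARS1 was lower and QARS1 was not called. Over the 10212 tested genes with a window, 289 held the core and 110 of them (38.1%) were higher in 3D-primed cells. The 32.4% called higher is over all 13943 genes, with or without a window, and the share among genes with a window was not computed. Among genes with a window, the median log2 fold change was -0.01 with the core and 0.02 without it.

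The wider set of genes under ATF4, listed from general knowledge, changed strongly and in both directions. Of 31 genes 30 were tested, FGF21 having 0 to 4 counts, and 22 were higher and 8 were lower in 3D-primed cells, with a median of 0.99 (1.98-fold), beside 32.4% and 31.6% of all genes. Counted among the 22 were CHAC1, with 1 to 13 counts per library, and ALDH1L2, with 3 to 124. Both were near the floor in 2D-primed cells (means of 0.05 and 0.25 CPM) and passed the filter through the 3D-primed libraries. With 10 counts required in all 8 libraries, 20 were higher and 8 lower. ATF4 itself gave 199, 179, 182 and 191 CPM in 2D-primed and 376, 369, 357 and 376 CPM in 3D-primed libraries (log2 0.98 ± 0.04 SE, adjusted p = 5.6e-08, edgeR). ASNS, which makes asparagine, gave 13.8, 14.3, 13.9 and 14.6 CPM and then 125, 130, 133 and 140 CPM, a 9.35-fold difference (adjusted p = 1.8e-10, edgeR). SHMT2 and MTHFD2, which carry one-carbon units in mitochondria, changed by 1.29 and 1.56 on the log2 scale.
The 8 that were lower, named after their values were seen, were DDIT3, DDIT4, ATF3, SLC7A5, SLC38A2, STC2, VLDLR and GDF15. DDIT3 (CHOP) and ATF3 encode stress-induced transcription factors, and SLC7A5 and SLC38A2 encode amino acid transporters. The list's genes thus did not move as a whole in the same direction.

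A list of 9 genes upstream of ATF4 held the kinases EIF2AK1, EIF2AK2, EIF2AK3 and EIF2AK4, the phosphatase subunits PPP1R15A and PPP1R15B, and also GCN1, IMPACT and EIF2S1. Of these 9, 2 were higher and 5 were lower in 3D-primed cells, with a median of -0.20, beside 32.4% and 31.6% of all genes. EIF2AK4, which encodes GCN2, changed from 87.1 ± 2.61 to 98.8 ± 2.58 CPM (SD, n = 4; log2 0.18, adjusted p = 0.0016, edgeR). GCN1, which GCN2 needs on the ribosome, was lower (log2 -0.41). PPP1R15A (GADD34), which brings the phosphatase to eIF2, gave 90.0, 110, 111 and 109 CPM and then 26.0, 29.9, 36.6 and 28.2 CPM, so all 3D-primed values were below all 2D-primed values (log2 -1.80, adjusted p = 2.7e-07, edgeR). PPP1R15B, its constitutive counterpart, was also lower (log2 -0.40). These are transcripts, and the phosphorylation of eIF2 was not measured in these files.

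Of 13 cytosolic partners of tRNA charging 6 were higher, 2 were lower and 5 were not called, with a median of 0.15. The 8 of 13 called are near the 63.9% of all genes called in either direction, where 32.4% were higher and 31.6% lower. XPOT, the exporter of tRNA from the nucleus, which also stood in the ATF4 list, gave 100.1, 99.9, 93.3 and 99.0 CPM and then 190, 192, 199 and 202 CPM (log2 1.00, adjusted p = 3.6e-08, edgeR). DTD1, which removes D-amino acids from tRNA, was higher (log2 0.79). EEF1A2, an isoform of the elongation factor that delivers charged tRNA, fell from 7.19, 8.43, 9.89 and 6.67 CPM to 0.38, 0.80, 0.68 and 0.44 CPM (log2 -3.81, adjusted p = 3.6e-07, edgeR), with 10 to 243 counts per library. The far more abundant isoform EEF1A1 was not called, at 16130 and 16480 CPM (log2 0.03), and its many pseudogenes could share its reads.
Of 17 mitochondrial partners 13 were higher, 1 was lower and 3 were not called, with a median of 0.25, beside 32.4% and 31.6% of all genes and a median of 0.24 for the mitochondrial enzymes. TSFM, the exchange factor for mitochondrial elongation factor Tu, rose from 17.9 ± 0.93 to 28.1 ± 1.51 CPM (SD, n = 4; log2 0.65). HSD17B10, a subunit of mitochondrial RNase P, changed by 0.64, and GATB, of the complex that makes glutaminyl-tRNA in mitochondria, by 0.62. Their adjusted p lay between 4.6e-06 and 1.4e-05 (edgeR).

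**Figure D5:**
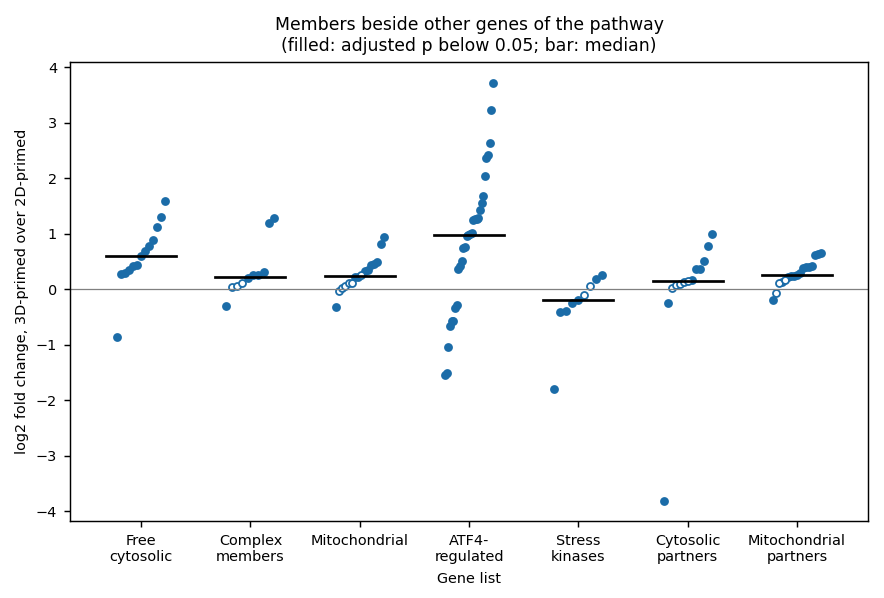
The log2 fold change (3D-primed over 2D-primed) of each tested gene in 7 lists, with genes sorted within a list and the bar at the median. Filled points passed an adjusted p of 0.05 (edgeR). The bars stand at 0.61 for free cytosolic enzymes, 0.23 for the complex and 0.24 for mitochondrial enzymes, and the ATF4 list runs from -1.55 to 3.72 with a median of 0.99. The value at 3.72 is ALDH1L2, which was near the floor in 2D-primed cells (mean 0.25 CPM), and ASNS stands next at 3.225.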

How the data were processed

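RNA of 2D-primed and 3D-primed HepG2 cells was sequenced in read pairs, in 4 strand-keeping polyA libraries of each kind. The authors deposited estimated counts per gene, made with Salmon on human cDNA and summed with tximport. The values were whole numbers, not scaled to depth, and the tximport setting for transcript length was not given in the sources used here. The filter of the study, 10 counts in at least 2 libraries, was applied, and the groups were compared with TMM factors and edgeR 4.0.16 (glmQLFit, glmQLFTest) in R 4.3.3, with p adjusted over 13943 genes at 0.05. The standard error is the log2 fold change divided by the root of its F value. CPM uses TMM-adjusted library sizes. Ratios had 0.5 counts added. Identifiers were matched to GENCODE symbols for 92.0% of 38032. The chi-square per degree of freedom between libraries of a group was 6.07 to 16.4, so none was a copy, and the biological coefficient of variation was 0.0934. Promoter sequences are from RefSeq on GRCh38.p14.

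The members and lists were chosen with earlier results of these data known, and the motif and the structural classes were added after values had been seen. Named genes are all members, ATF4, ASNS, EIF2AK4, the 3 genes of each outside list with the smallest p, and neighbours that start within 1000 bases on the opposite strand. Others, such as markers, are named where a value touches a result. Alternatives were DESeq2 1.42.0, limma-voom (limma 3.58.1), other scaling factors, other filters, each library left out, and the replicate number as a block. Same-numbered libraries did not deviate together, so the numbers were not taken as pairs. The scripts were tested on simulated data. Tables and figures were made in Python 3.11.15. The standard errors and SDs include the spread between libraries.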

Additional observations from a re-analysis of the deposited data

Results flagged for a closer look

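In 106 groups of 4 libraries (members and outside lists) the value farthest from the others was compared with Dixon's critical value for its gap divided by the range, which chance passes in about 1 group in 20, and 3 groups passed. MARS2, the mitochondrial methionine enzyme, stood at 25.1 CPM in 3D-primed replicate 4 and at 21.5 to 22.1 CPM in the other 3D-primed libraries, and it was not called with or without that library. PPP1R15A stood at 90.0 CPM in 2D-primed replicate 1 and at 109 to 111 CPM in the others of its group, all above the 3D-primed values. XPOT stood at 93.3 CPM in 2D-primed replicate 3 and at 99.0 to 100.1 CPM in the others, all below the 3D-primed values.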

How the results depend on the processing

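Over the alternatives run (DESeq2, limma-voom, other scaling factors, other filters, the block and each library left out), the members called higher in 3D-primed cells numbered 27 to 31, with 16 to 17 cytosolic, 9 to 11 mitochondrial, 6 to 8 complex and 12 free enzymes, and those called lower stayed at 3. The replicate numbers were not taken as pairs, since same-numbered libraries showed no shared deviation (correlations of deviations from -0.04 to 0.06). Only 2D-primed replicate 3 correlated best with its own number. Whether the numbers mark shared occasions is not known from the labels. The replicate block called 8490 genes in place of 8916, and 27 members higher and 3 lower. The median shift of all genes was under 0.1 on the log2 scale for every scaling. Upper-quartile factors brought QARS1 (0.11), MARS2 (0.17), YARS2 (0.16) and AIMP1 (0.17) past the threshold, and total counts QARS1 (0.09), as did leaving out 3D-primed replicate 3 for YARS2 (0.14) and 3D-primed replicate 4 for AIMP1 (0.15). PARS2 changed sign to 0.012 with upper-quartile factors, 0.0185 without 2D-primed replicate 1, 0.012 without 2D-primed replicate 3 and 0.0056 without 3D-primed replicate 4, and IARS2 to -0.0032 without 3D-primed replicate 2, none of them called. With a library left out, PARS2 ran from -0.11 to 0.0185 and IARS2 from -0.0032 to 0.026. The alanine ratio had an exact permutation p of 0.057 without any of the 3D-primed libraries, and the asparagine ratio 0.086 without any of the 2D-primed libraries. In both the groups stayed apart. The phenylalanine ratio reached 0.029 without 3D-primed replicate 3, and the proline ratio without 2D-primed replicate 4. The ATF4 list gave 20 to 23 higher and 8 lower, the 20 with 10 counts required in all 8 libraries. The cause of these changes was not tested. VARS2, with 26 to 91 counts a library the member with the fewest, ran from 0.03 to 0.59 with a library left out.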
